A study of Rattus norvegicus with 10 samples.

Results

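Cytosolic ribosomal protein genes were followed in cultured rat hippocampal neurons after chemical long-term potentiation (cLTP), a bath treatment used to strengthen synapses across a whole dish. Members were taken by symbol: every gene named Rpl or Rps followed by a number, with an optional letter or l-type suffix, plus the genes of the P0, P1 and P2 stalk proteins and Rpsa, without the Rps6 kinases. This gave 75 genes of the 11615 measured, 45 of the large subunit and 30 of the small subunit. They are listed on 18 chromosomes, though for some rows the listed chromosome need not be that of the parent gene. Of a textbook list of 79 ribosomal protein genes, 70 were members. Fau, whose ribosomal protein is made fused to a ubiquitin-like protein, was measured but falls outside the rule by name. Rpl7a, Rpl8, Rpl37a, Rplp2, Rps6, Rps9 and Rps19 were not analysed here. The 5 members beyond the textbook list were the paralogues Rpl22l1, Rpl36al, Rpl39l, Rps27l and Rps4y2.

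The cultures were hippocampal neurons of Wistar rats, grown for 15 days in vitro. There were 5 groups, each with 2 biological repeats. They were collected 5, 10, 60 or 120 min after the cLTP solution, or after a mock solution; the sources used here give neither the agents in these solutions nor the time at which mock cultures were collected. All cultures had received fluorodeoxyuridine with uridine on day 4 to hold back glia. Messages of astrocyte markers were still abundant in mock, so the values are those of a mixed culture and not of neurons alone. Messenger RNA was sequenced after removal of ribosomal RNA and 3 rounds of oligo(dT) selection, with 32961534 to 54040657 reads per library. Values are CPM, a gene's reads as a share of its library on a fixed scale, adjusted between libraries with trimmed-mean (TMM) factors.

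A cytosolic ribosome joins a small subunit, which reads the messenger RNA, to a large subunit, which forms the peptide bond, and each holds a single copy of nearly all its proteins. Most ribosomal protein messages of vertebrates start with a C followed by a run of pyrimidines, the 5′ terminal oligopyrimidine (TOP) tract, through which mTOR and Larp1 set their translation. In neurons these messages are also found in axons and dendrites, and long-lasting synaptic plasticity is known to need new protein synthesis. An mRNA level says nothing of how much of that mRNA is being translated.

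The sequence at the start of these genes is shown for the members that were higher at 120 min and for a few that were not, since the TOP tract is a sequence feature the family is known for. A promoter in the RefSeq annotation of assembly GRCr8 was matched by symbol for 59 of the 75 members, with 60 promoters in all. Each line gives 15 bases before and 15 bases from the annotated start, 5′ to 3′ on the gene's strand. Capitals mark a stretch of at least 5 pyrimidines, read from a C that lies within 5 bases of that start. Pyrimidines in lower case can come directly before the capitals, as in Rpl4, where the whole run is longer than the stretch marked.

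The measured rows of Rps13, Rps10, Rpl10a and Rpl9 cover several loci. For each of them the chromosome listed differs from that of the promoter shown, which is the start of the RefSeq gene. Among members called higher at 120 min and matched to a promoter, these 7 had such a stretch:
Rps13: gccgtttcctacctcgttCTCTCTTTgctt
Rpl10: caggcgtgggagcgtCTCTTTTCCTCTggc
Rpl4: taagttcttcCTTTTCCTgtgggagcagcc
Rps10: gccgcgcacgCCCCTTCCTTTCCagcctcc
Rpl12: ggagcaacatccgtCTTTTCggctttcggt
Rpl10a: gaaaccttctgCCTTCTTTTCCggttcccg
Rpl9: gacgaaggacgttCTCTCTTTgccccatct
These 4 called members had none at the annotated start:
Rpl36: ctgtccggccgccatcggaaagctgcaggt
Rpl5: actctctttcccacgtcgcttgcgtcctgg
Rpl22l1: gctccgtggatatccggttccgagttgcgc
Rps27l: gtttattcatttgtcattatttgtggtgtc
These 4 members were not called at 120 min, and all 4 have the stretch, which 32 of 49 promoters of uncalled members had. The first 2 of them are the parent genes of called paralogues:
Rpl22: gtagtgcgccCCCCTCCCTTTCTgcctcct
Rps27: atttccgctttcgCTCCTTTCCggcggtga
Rpl19: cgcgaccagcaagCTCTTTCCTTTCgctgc
Rplp1: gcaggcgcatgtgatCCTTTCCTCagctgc

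A stretch of this kind stood at the start of 39 of the 60 member promoters (65%). Over all 33469 promoters of the annotation the share was 17.0%. It was 16.9% over the promoters of genes in the expression table. The shorter letters CTTTC, searched within 20 bases of the start on the gene's strand, were found in 30 member promoters (50%), against 4.97% of all promoters. On either strand the shares were 51.7% of member promoters and 9.87% of all promoters. CTTTC can lie inside the longer stretch, so the 2 searches overlap. Of the called members at 120 min, 7 of 11 matched promoters had the stretch, 4 of them for rows of several loci, and 3 had CTTTC. Of those not called, 32 of 49 had the stretch and 27 had CTTTC. These are matches of letters at annotated starts, which can lie a few bases from the start in use: in Rpl5 a pyrimidine run is visible in lower case upstream of the position searched.

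The members were among the most abundant messages of the cultures, and their levels differed widely within the family. Per kilobase of deposited gene length, the mean over the 10 libraries had a median of 304 CPM per kb across members, against 15.0 CPM per kb over all genes. Of the 75 members 73 lay above that median and 60 among the highest 10% of all genes. The highest was Rpl41, which encodes a very short basic peptide of the large subunit, at 1147 CPM per kb. It was followed by Rplp1, an acidic protein of the stalk that elongation factors bind, at 903 CPM per kb and by Rpl19 at 740.1 CPM per kb. Their ranges over the 10 libraries were 1033 to 1242 CPM per kb for Rpl41, 815 to 990.3 CPM per kb for Rplp1 and 687 to 829 CPM per kb for Rpl19, which do not overlap for Rpl41 and Rplp1. The lowest were the paralogues Rps4y2 (3.25 CPM per kb, range 2.56 to 3.74) and Rpl39l (3.52 CPM per kb, range 2.70 to 4.45), whose ranges overlap and which rested on 102 to 168 and 51 to 96 reads per library.

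**Figure D1:**
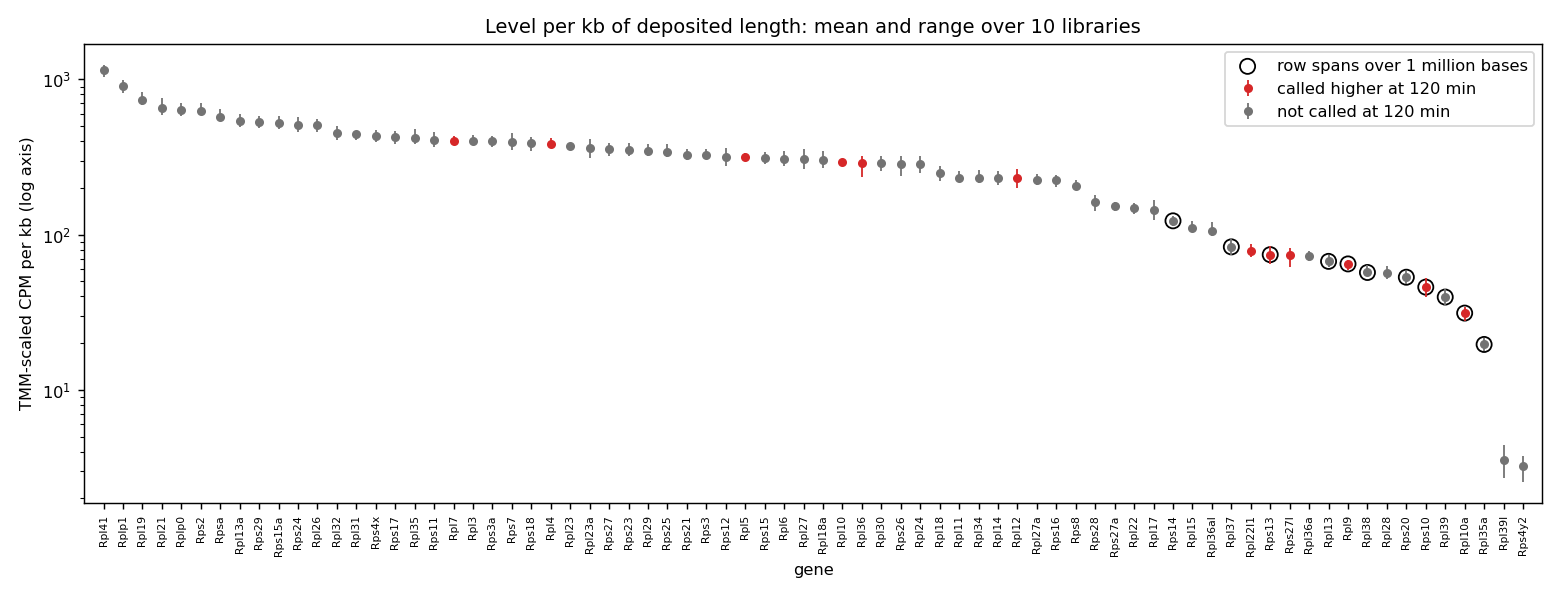
Level of 74 of the 75 members in CPM per kb of deposited length (log axis), ordered by mean: points are means over the 10 libraries, bars the lowest and highest library. Red marks the 12 members called higher at 120 min and black rings the 11 members whose listed start and end differ by over 1000000 bases. The levels run from 3.25 CPM per kb (Rps4y2) to 1147 CPM per kb (Rpl41), and the ringed rows lie in the lower part.

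Some rows covered more than the gene itself. Ribosomal protein genes have many processed copies in mammalian genomes. For 11 members the deposited start and end differ by over 1000000 bases, from 1881657 to 212209165. These members are Rpl10a, Rpl13, Rpl35a, Rpl37, Rpl38, Rpl39, Rpl9, Rps10, Rps13, Rps14 and Rps20. The 2 positions of a row need not lie on 1 chromosome, so the difference need not be a distance. Rpl35a, for example, is listed on chromosome 5, while its RefSeq promoter in GRCr8 lies on chromosome 11. Such a row covers more than 1 locus, and its reads cannot be assigned to the parent gene alone. The other 64 members span at most 6724 bases. The 11 rows had a median length of 1117 bases and a median level of 57.1 CPM per kb, against 583.5 bases and 321 CPM per kb for the other 64. Rpl35a, the third lowest member at 19.6 CPM per kb, is among them. Reads shared with processed copies may also be split or lost in the other members, and the sources used here give no strand setting for the counting.

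As a family, the members took a small share of the reads in each library. Their summed CPM made up 1.5% of the reads in both mock libraries. It was 1.58% and 1.68% at 5 min, 1.51% and 1.54% at 10 min, 1.56% and 1.41% at 60 min and 1.52% and 1.56% at 120 min. Set against the mean of the mock libraries, the median log2 difference over the 75 members was 0.08 and 0.19 in the 5 min libraries, 0.00 and 0.04 at 10 min, 0.08 and -0.08 at 60 min and 0.07 and 0.12 at 120 min. The mock libraries themselves lay at 0.00 and 0.00. All 4 medians of 5 and 120 min were thus above mock, the 10 min libraries were close to it and the 60 min libraries lay on opposite sides of it.

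**Figure D2:**
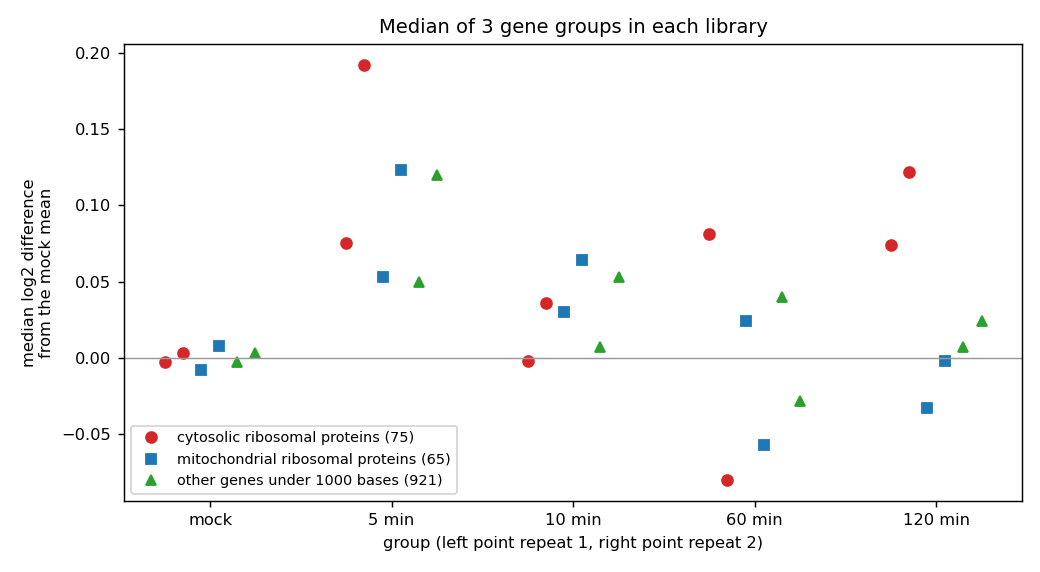
Median log2 difference from the mean of the 2 mock libraries in each library (left point repeat 1, right point repeat 2), for the 75 members (red circles), 65 mitochondrial ribosomal protein genes (blue squares) and 921 other genes with a deposited length under 1000 bases (green triangles). The members lie highest in repeat 2 of 5 min (0.19), and the 60 min repeats stand apart by more than 120 min stands above mock.

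The repeats of a group differed across most of the family at several times, most widely at 5 and 60 min. At 5 min repeat 2 was above repeat 1 for 68 of 75 members, with a median log2 difference of 0.13. At 60 min repeat 1 was above repeat 2 for 73 of 75 members, and the median difference, repeat 2 minus repeat 1, was -0.18. At 120 min repeat 2 was above repeat 1 for 60 of 75 members (52.8% of all genes), with a median of 0.04, against 0.01 for short non-members. At 10 min it was above for 50 of 75, with a median of 0.04, against 0.05 for short non-members. In the mock pair 42 of 75 members were higher in repeat 2, with a median of 0.00 on the log2 scale. Other short messages moved with the members: for 921 non-members with a deposited length under 1000 bases the repeat difference was 0.07 at 5 min and -0.07 at 60 min. For 65 mitochondrial ribosomal protein genes, which encode a separate ribosome and lie outside the rule, it was 0.08 and -0.10. Over all genes the repeat medians differed by 0.00 at both times. The part of RNA quality, length or preparation in these shifts was not tested.

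At 5 min the family lay slightly above mock, and no member passed the test. All but Rps4y2 of the 75 members had a positive log2 fold change (median 0.13, against 0.00 over all genes and 0.08 over the short non-members), and the extremes were -0.07 and 0.32. A moderated linear model on log2(CPM + 1) was fitted with limma, and genes were called where the p, adjusted over all genes by Benjamini and Hochberg's method, was under 0.05. Called members were 0 higher and 0 lower, as were all genes (0.0% in each direction). At an unadjusted p under 0.05 there were 34 members (45.3%), against 16% of all genes. Both 5 min libraries lay above both mock libraries for 67 members (89.3%), against 24.1% of genes higher and 23.3% lower in this sense; 0 members were lower.

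The smallest p at 5 min were those of Rpl36 and Rpl22l1. Rpl36, a large-subunit protein, was at 116 and 109 CPM at 5 min, against 85.9 and 94.3 CPM in mock (log2 fold change 0.32 with SE 0.07, adjusted p = 0.193 with limma). Rpl22l1, a paralogue of the RNA-binding large-subunit protein Rpl22, was at 49.5 and 46.8 CPM at 5 min, against 41.4 and 40.8 CPM in mock (0.22, SE 0.06, adjusted p = 0.193). The groups did not overlap for either gene. Without repeat 1 of 5 min, the lower of the pair for the family as a whole, 10 members were called higher, where 0.956% of all genes were; with any other single library left out, 0 were. The authors' deposited table lists 1 member, Rpl36, past an adjusted p of 0.05 at 5 min, where 0.0344% of all genes are listed as higher.

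At 10 min the members lay at mock level. The median log2 fold change was 0.02, against 0.00 over all genes, with 45 members above and 30 below 0. None was called in limma, 0 higher and 0 lower, against 0.0344% of all genes higher and 0.0% lower, and 4 members had an unadjusted p under 0.05 (5.33%, against 9.88% of all genes). The libraries of 10 min lay above both mock libraries for 21 members (28.0%, against 21.3% of all genes) and below both for 6 (8.0%, against 21.4%). Rpl36 was at 101 and 111 CPM at 10 min, against 85.9 and 94.3 CPM in mock (log2 fold change 0.23, adjusted p = 0.366). Rpl9, a large-subunit protein whose table row covers several loci, was at 137 and 142 CPM at 10 min, against 128 and 123 CPM in mock (0.14, adjusted p = 0.383).

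At 60 min the median of the members was again at mock level. The members' median log2 fold change was 0.01, against -0.01 over all genes, with 43 members above and 32 below 0. With library totals as the scaling these counts were 15 and 60, and with upper-quartile factors 27 and 48. None was called in limma, 0 higher and 0 lower, against 4.64% of all genes higher and 1.96% lower. An unadjusted p under 0.05 was seen for 2 members (2.67%, against 16.8% of all genes). The 60 min repeats lay on either side of mock, and groups were apart for few members: 4 were higher (5.33%, against 21.8% of all genes) and 1 lower (1.33%, against 25.8%). Without repeat 1 of 60 min 9 members lay above 0, and without repeat 2 of 60 min 73 did.

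Rps10 and Rpl36 came closest to the threshold at 60 min. Rps10, a protein of the small subunit's head near the mRNA entry, whose row covers several loci, was at 58.4 and 50.1 CPM at 60 min, against 44.5 and 45.5 CPM in mock (log2 fold change 0.26 with SE 0.08, adjusted p = 0.0811 with limma). Rpl36 was at 115 and 97.9 CPM at 60 min, against 85.9 and 94.3 CPM in mock (0.23, SE 0.07, adjusted p = 0.102). For both genes all 60 min libraries were above all mock libraries. The authors' deposited table lists these 2 members of 75 as higher at 60 min, where 5.9% of all genes are listed as higher.

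By 120 min 12 of the 75 members were higher than in mock and 0 were lower (16%, against 20.4% of all genes higher and 16.9% lower). In this fit the share called was therefore near the background, while the shifts were small and mostly to one side. In other fits, given below, the share lay below or above that of all genes. The median log2 fold change was 0.10, against -0.01 over all genes and 0.02 over short non-members, and 72 of 75 members lay above 0, against 48.6% of all genes. With library totals or upper-quartile factors the median was 0.03 and 0.04, and 56 and 57 members lay above 0. The members ranged from -0.07 to 0.32, while the 10th and 90th percentiles of all genes were -0.26 and 0.36. Both 120 min libraries were above both mock libraries for 60 members (80.0%, against 36.1% of all genes) and below both for 0 (against 37.5%). An unadjusted p under 0.05 was seen for 21 members (28.0%, against 46.3% of all genes). The calls were 9 of 45 large-subunit and 3 of 30 small-subunit members, with medians of 0.10 and 0.08.

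**Figure D3:**
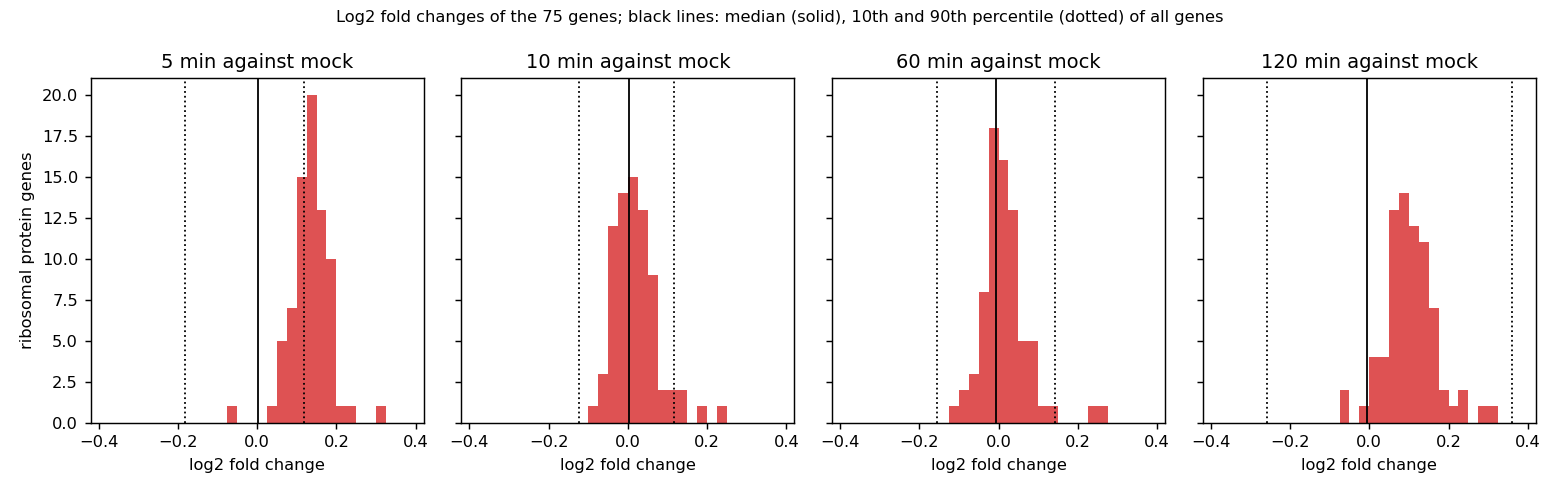
Number of members by log2 fold change against mock at 5, 10, 60 and 120 min (bins of 0.025). Black lines are the median (solid) and the 10th and 90th percentiles (dotted) over all 11615 genes; the members' medians are 0.13, 0.02, 0.01 and 0.10, and at 120 min nearly all members lie inside a wider spread of all genes.

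Rpl36 had the largest change and the smallest p at 120 min. It was at 85.9 and 94.3 CPM in mock, 116 and 109 CPM at 5 min, 101 and 111 CPM at 10 min, 115 and 97.9 CPM at 60 min and 112 and 114 CPM at 120 min. All 8 cLTP libraries were thus above both mock libraries. At 120 min it was 1.25-fold above mock (log2 fold change 0.32 with SE 0.07, adjusted p = 0.00575 with limma). The row is on chromosome 9 from 10441228 to 10441981 on the minus strand (rn6). Without mock repeat 1, its lowest library, the adjusted p was 0.0563, the highest of a range from 0.000678 over 20 alternatives.

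Rps13, a small-subunit protein at the interface with the large subunit, was at 85.5 and 88.1 CPM at 120 min, against 70.5 and 71.2 CPM in mock. The change was 1.22-fold (log2 fold change 0.29 with SE 0.07, adjusted p = 0.00831 with limma), and over the alternatives the adjusted p ran from 0.000401 to 0.0603, the highest being without repeat 2 of 120 min. At 5 min it stood at 81.4 and 81.2 CPM, while its 60 min libraries, at 82.2 and 67.9 CPM, lay on either side of mock. Its row covers several loci.

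Rpl5, which carries the 5S ribosomal RNA into the large subunit together with Rpl11, was at 361 CPM in both libraries of 120 min, against 322 and 326 CPM in mock. This was 1.11-fold higher (log2 fold change 0.16 with SE 0.04, adjusted p = 0.0175 with limma). The row lies on chromosome 14 from 2860965 to 2867397 on the minus strand (rn6). Rpl7, another large-subunit protein (chromosome 5, 2633517 to 2636524, plus strand, rn6), was at 352 and 366 CPM at 120 min, against 319 and 327 CPM in mock (log2 fold change 0.15, adjusted p = 0.0196). Its 5 min libraries were as high, at 348 and 368 CPM, without passing there (adjusted p = 0.197).

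The other 8 called members rose by 0.13 to 0.25 on the log2 scale. Rpl10, a protein of the large subunit's core that joins late in assembly (chromosome X, 156438259 to 156440461, minus strand, rn6), was at 233 and 234 CPM at 120 min, against 214 and 212 CPM in mock (adjusted p = 0.0252 with limma). Rpl4, which lines part of the exit tunnel for the growing peptide, was at 544 and 569 CPM at 120 min, against 502 and 504 CPM in mock (adjusted p = 0.0312). For both genes the libraries of 120 min lay above those of mock.

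Rpl12, at the base of the stalk, was at 179.5 and 191 CPM at 120 min, against 155 and 157 CPM in mock (log2 fold change 0.25, adjusted p = 0.0442 with limma). Its 5 min libraries were at 159 and 191 CPM and its 60 min libraries at 174 and 146 CPM, so that the spread within those groups was about as large as its change at 120 min. Rps10 was at 50.4 and 55.8 CPM at 120 min, against 44.5 and 45.5 CPM in mock (0.23, adjusted p = 0.0357). Rpl10a, of the mobile L1 stalk, was at 48.3 and 47.5 CPM at 120 min, against 39.6 and 44.5 CPM in mock (0.19, adjusted p = 0.0455). Rpl9 was at 140.0 and 137 CPM at 120 min, against 128 and 123 CPM in mock (0.14, adjusted p = 0.0459). No group overlapped with mock for these 4 genes at 120 min. All 4 calls were lost with library totals and with upper-quartile factors. Those of Rpl12, Rpl10a and Rpl9 were also lost with a replicate block, a term for the repeat number in the fit. Rps10, Rpl10a and Rpl9 are rows of several loci, and so is Rps13. Without the 11 rows of that kind, 8 of the remaining 64 members were called higher at 120 min, against 20.4% of all genes. The medians at 120 min were 0.11 for the 11 rows and 0.10 for the 64.

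**Figure D4:**
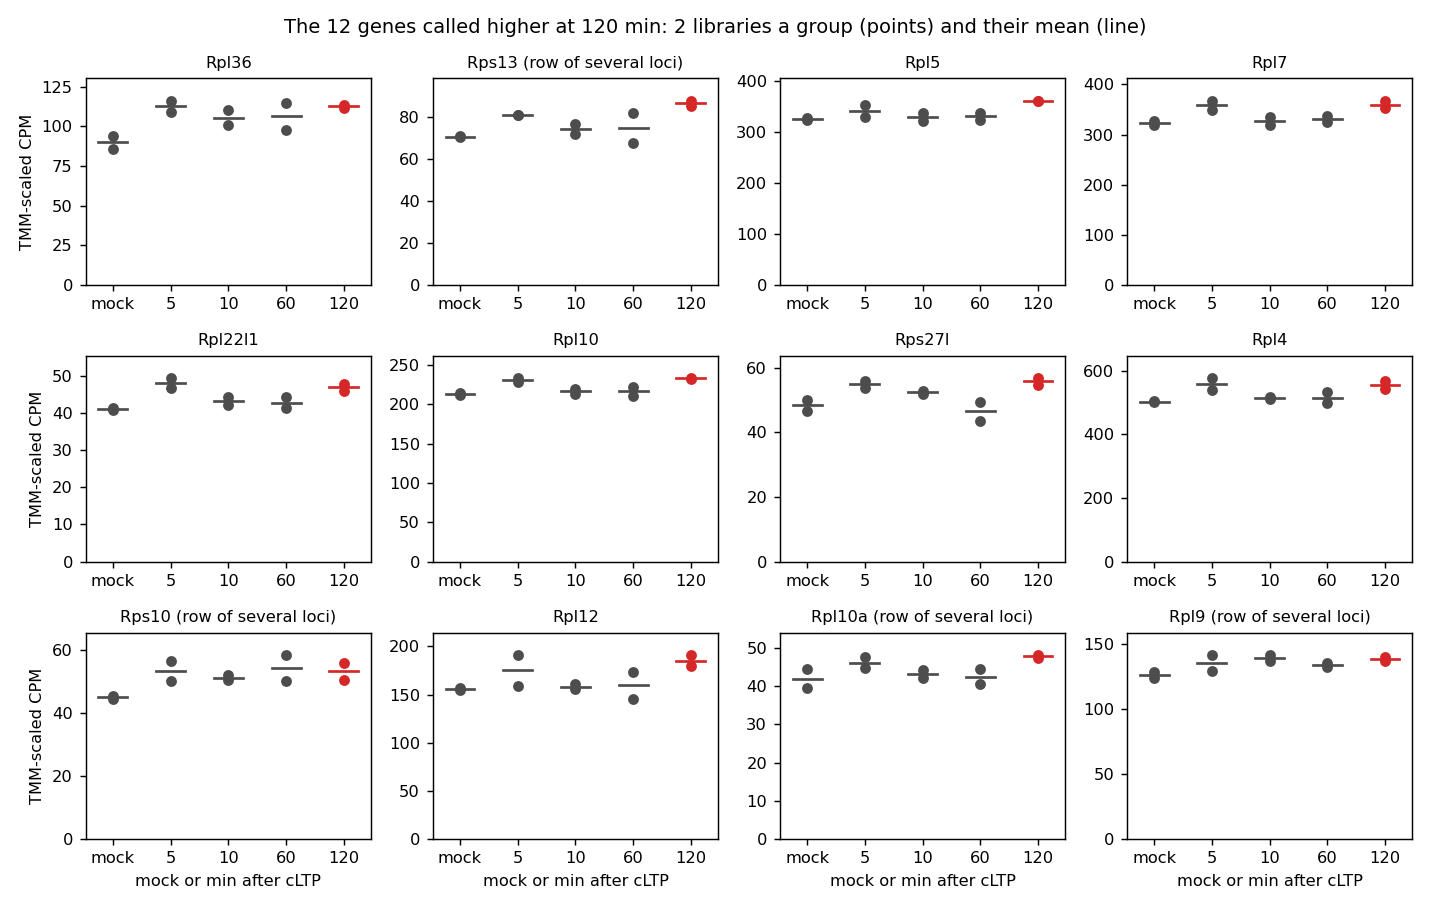
TMM-scaled CPM of the 12 members called higher at 120 min, by group in time order from mock to 120 min: points are single libraries, lines the mean of 2, and the axes start at 0. The 120 min points (red) lie above both mock points in every panel, by 1.09-fold to 1.25-fold on average, and the 60 min points are often the widest pair.

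The calls at 120 min depended on the scaling and on single libraries. With library totals or upper-quartile factors in place of TMM 2 members were called, Rpl36 and Rps13 (15.4% and 15.5% of all genes higher). Leaving out 1 library gave 2 calls without mock repeat 1, 3 without mock repeat 2, 4 without repeat 1 of 120 min and 1 without its repeat 2. The share of all genes called higher was 14.3% to 15.9% in these 4 fits. The count was 18 without either 5 min library, where 22% of all genes were called higher. The authors' deposited table lists 27 members as higher and 0 as lower at 120 min, where 22.8% of all genes are listed as higher, and all 12 called here are among the 27.

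The paralogues stood beside their parent genes as follows. At 120 min Rpl22l1 was at 45.9 and 47.7 CPM, against 41.4 and 40.8 CPM in mock (log2 fold change 0.19, adjusted p = 0.0209 with limma). Its parent Rpl22 was at 67.7 and 70.7 CPM at 120 min, against 69.4 and 65.6 CPM in mock (0.04, adjusted p = 0.681), so its groups overlapped; with library totals its value was -0.03. Rps27l, known in human cells as a target of p53, was at 54.6 and 56.9 CPM at 120 min, against 50.2 and 46.7 CPM in mock (0.20, adjusted p = 0.0266). Its parent Rps27 was at 124 and 126 CPM at 120 min, against 118 CPM in both mock libraries (0.08, adjusted p = 0.265). The difference between paralogue and parent was not tested in either pair.

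Rpl36al and Rpl36a did not pass at 120 min, with log2 fold changes of 0.09 (adjusted p = 0.324) and 0.11 (adjusted p = 0.17). Rpl39l, a paralogue best known from testis, was at 1.54 and 1.70 CPM at 120 min, against 1.37 and 2.20 CPM in mock (-0.07, adjusted p = 0.717), and its mock libraries lay on either side of those of 120 min. Rpl39, at the end of the exit tunnel, was at 33.7 and 39.4 CPM at 120 min, against 36.7 and 35.8 CPM in mock (0.01, adjusted p = 0.951). Rps4y2 had a log2 fold change of -0.05 (adjusted p = 0.784) and Rps4x, its X-linked counterpart, 0.13 (adjusted p = 0.0717). Rps4y2 and Rpl39l, with Rpl38 at -0.02, were the 3 members below 0 at 120 min.

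Rplp0 and Rpsa, both abundant, did not pass the test. Rplp0, the stalk protein often used as a reference gene, was at 711 and 699 CPM at 120 min, against 638 and 667 CPM in mock (log2 fold change 0.11, adjusted p = 0.144 with limma). Rpsa, which is also known as a laminin receptor precursor, was at 575 and 587 CPM at 120 min, against 552 and 570.1 CPM in mock (0.05, adjusted p = 0.525). Of the highest members per kilobase, Rpl41 had a log2 fold change of 0.09 (adjusted p = 0.298), Rplp1 0.15 (adjusted p = 0.107) and Rpl19 0.09 (adjusted p = 0.254). Outside the rule, Fau had 0.11 (adjusted p = 0.252) and Gnb2l1, which encodes the small-subunit scaffold Rack1, 0.10 (adjusted p = 0.152).

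**Figure D5:**
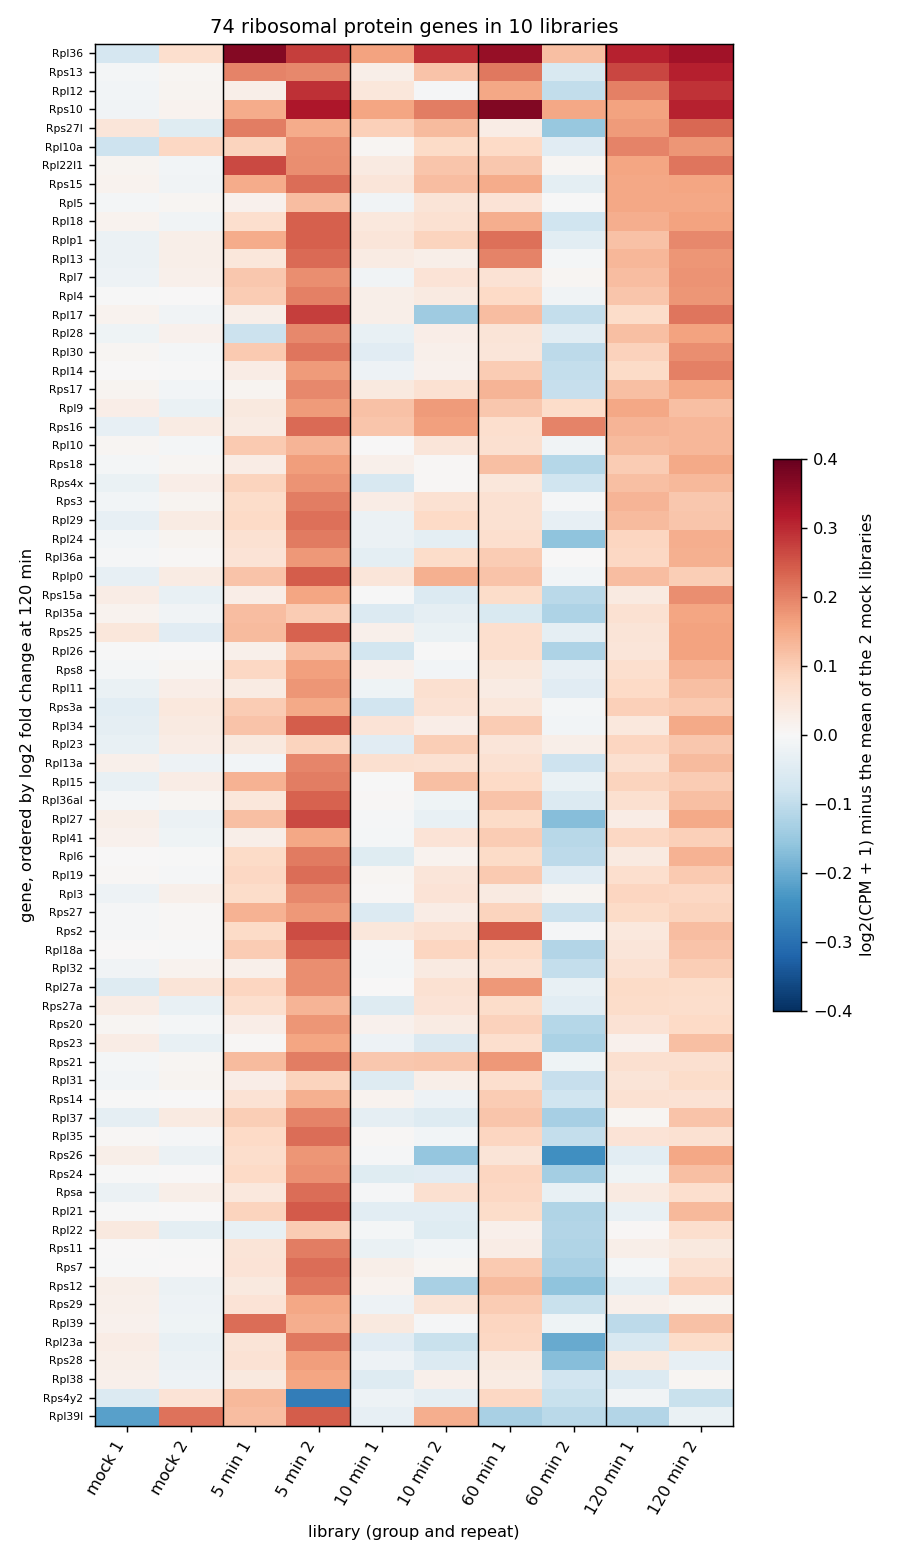
Log2(CPM + 1) of 74 of the 75 members in each of the 10 libraries, minus the mean of the 2 mock libraries, with members ordered by their log2 fold change at 120 min (red higher, blue lower than mock). Columns 5 min 2 and 60 min 2 stand apart from their partner columns over most rows, and Rpl36 at the top is red in all 8 cLTP columns.

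From 60 to 120 min 7 members rose and 0 fell (9.33%, against 19.8% of all genes higher and 16% lower). The members' median log2 difference was 0.08, against 0.00 over all genes, and 14 had an unadjusted p under 0.05 (18.7%, against 45.2%). Libraries of 120 min were above both libraries of 60 min for 28 members (37.3%, against 36.2% of all genes) and below both for 0 (against 35.4%). Rps27l was at 54.6 and 56.9 CPM at 120 min, against 49.4 and 43.5 CPM at 60 min (log2 difference 0.26, SE 0.06, adjusted p = 0.00743 with limma). Rpl35a, whose row covers several loci, was at 35.2 and 37.7 CPM at 120 min, against 32.2 and 30.9 CPM at 60 min (0.20, adjusted p = 0.0128). For Rps13 the values were 85.5 and 88.1 CPM at 120 min, against 82.2 and 67.9 CPM at 60 min (0.21, adjusted p = 0.0372), and Rpl5, Rpl30 and Rps4x also rose (0.13 to 0.17). Repeat 2 of 60 min, the library in which the family was lowest, entered each of these: without it 0 members were called, and without repeat 1 of 60 min 21 were, where 14.8% and 15.1% of all genes were called higher. The count was 0 without repeat 2 of 120 min, 2 without its repeat 1 and 3 without either mock library.

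Most measured genes that build ribosomes were higher at 120 min. Of 55 measured genes of ribosome assembly and rRNA synthesis, 41 were higher and 1 lower at 120 min (74.5% and 1.82%, against 20.4% and 16.9% of all genes; median log2 fold change 0.33, against 0.10 for the members and -0.01 over all genes). At 60 min 2 were higher, Myc and Dkc1. Myc, a transcription factor that drives ribosome production, was at 74.3 and 70.6 CPM at 60 min, against 8.65 and 7.94 CPM in mock (log2 fold change 2.98, adjusted p = 5.78e-11 with limma). At 120 min Myc was at 42.5 and 40.3 CPM (2.19, adjusted p = 6.54e-10). Wdr43, a protein of the early small-subunit precursor, was at 104 and 108 CPM at 120 min, against 55.2 and 55.6 CPM in mock (0.92), and Ddx21, a nucleolar helicase, at 181 and 185 CPM, against 117 and 114 CPM (0.66). The lower gene was Gnl3l, a nucleolar GTPase (-0.16, adjusted p = 0.0228). Dkc1, the pseudouridine synthase of ribosomal RNA, had 0.45 at 60 min (adjusted p = 0.0211). The call of Dkc1 was lost without either mock library or repeat 1 of 60 min, and that of Gnl3l without any 1 of the mock or 120 min libraries (highest adjusted p over the alternatives 0.248 and 0.14).

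Translation factors were called in both directions. Of 43 measured initiation, elongation and release factors, 19 were higher and 2 lower at 120 min (44.2% and 4.65%, against 20.4% and 16.9% of all genes; median 0.09, against -0.01). The cap-binding protein gene Eif4e was at 207 and 209 CPM at 120 min, against 161 and 164 CPM in mock (log2 fold change 0.36), and the helicase gene Eif4a1 at 610.2 and 612 CPM, against 432 and 438 CPM (0.49). The release factor gene Etf1 rose by 0.43, while Eif5b, for subunit joining, had -0.28 and Eef1a2, the elongation factor of mature neurons, -0.21. At 60 min Eif5b was the only called gene of this list (-0.25, adjusted p = 0.0452). That call was lost under 8 of 20 alternatives, among them the replicate block and the fit of only the 2 groups compared, with adjusted p from 0.0134 to 0.422. At 120 min Eif5b missed the threshold without mock repeat 1 or repeat 1 of 120 min, and Eef1a2 without mock repeat 2.

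Of 37 measured genes of the mTOR pathway and its regulation of TOP messages, 7 were higher and 9 lower at 120 min (18.9% and 24.3%, against 20.4% and 16.9% of all genes; median -0.03, against -0.01). Among those that rose were the kinase gene Rps6ka3 (0.84), the GTPase gene Rraga (0.23) and the stress sensor gene Sesn2 (0.21). Among those that fell were Ddit4, an mTOR inhibitor (-0.74), Gatsl2, also named Castor2 (-0.52), and Sesn1 (-0.46). At 60 min the translational repressor gene Eif4ebp2 was lower (-0.36, adjusted p = 0.0111, range over the alternatives 0.00644 to 0.104), and it missed the threshold without either mock library or repeat 2 of 60 min. At 120 min Rraga missed it without mock repeat 1 or repeat 1 of 120 min, and Sesn2 with library totals and without mock repeat 2 or repeat 2 of 120 min. Of 65 mitochondrial ribosomal protein genes 2 were higher, Mrps34 (0.40) and Mrpl17 (0.18), and 2 lower, Mrpl18 (-0.25) and Mrps5 (-0.20), at 120 min (3.08% in each direction, median -0.02). Mrpl17 was not called without mock repeat 2, Mrpl18 without mock repeat 2 or repeat 1 of 120 min, and Mrps5 without any 1 of the mock or 120 min libraries.

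Some marker genes of the cell types present were also called at 120 min, where 20.4% of all genes were called higher and 16.9% lower. In lists this short, counts of 1 or 2 called genes say little beside these shares. The summed level of 14 of 14 neuronal markers was 4610 to 4750 CPM at 120 min, against 5350 to 5570 CPM in mock, with 9 lower. The sum of 10 of 10 astrocyte markers was 25700 to 27100 CPM at 120 min, against 24300 to 24400 CPM in mock, with 3 higher. That of 10 of 10 microglia and macrophage markers was 189 to 196 CPM at 120 min, against 262 to 263 CPM in mock, with 8 lower. For 10 of 10 oligodendrocyte markers it was 1430 to 1470 CPM, against 1560 to 1650 CPM in mock, with 2 lower. For 6 of 10 fibroblast and vascular markers it was 1990 to 2170 CPM, against 2350 to 2510 CPM in mock, with 2 lower. For 8 of 8 cycling markers it was 460 to 479 CPM, against 408 to 476 CPM in mock, with 1 lower. Every cell type makes ribosomal proteins, and in bulk RNA a change in the number of cells of a type and a change in RNA per cell cannot be told apart. The part of cell composition in the members' values was not tested.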

How the data were processed

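Per the submitters' processing notes, the tools included HTSeq, edgeR, TopHat2 2.1.0 and bcl2fastq, and the rat build was rn6; the sources used here give no annotation or strand setting. The authors deposited, per the file headers, a table of 11615 genes with CPM for each library, coordinates and a length, and, for each time against mock, their own p-values, raw and adjusted, with a log2 fold change. These deposited log2 and p-value columns were used only where the authors' table is named. Another 6 columns repeat the mock values and were not used. In 22 rows a serial number stands in place of the symbol, so these could not be matched as members.

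The lowest value listed was worth 9 to 20 reads per library, so rarer transcripts were not analysed here. CPM were divided by TMM factors (30% of log ratios and 5% of levels trimmed), and log2(CPM + 1) was fitted over all 10 libraries with limma 3.58.1 in R 4.3.3, with a variance trend and 5 residual degrees of freedom. Fold changes are on this scale, which understates those of low genes. Tests were two-sided, adjusted by Benjamini-Hochberg over all genes and called under 0.05. The model fit was also run on simulated data with known changes, but without the TMM step. That run therefore says nothing of how the scaling affects the calls made here. The p-values measure the spread between repeats, with each gene's variance drawn towards the trend over all genes (6.568 prior degrees of freedom). The labels call the repeats biological, and the sources used here do not say whether these were separate dissections.

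Members and gene lists were chosen with earlier results of these data known. Named members were those with the smallest p at each time (up to 4 called, or 2 where none was called), paralogues with their parents, the 3 highest and 3 lowest per kilobase, Rplp0 and Rpsa; up to 3 called genes each way were named per other list. Other called members, those called between 60 and 120 min and Rpl38 were named after their values were seen. A few genes taken by these rules are not reported here. Plots used matplotlib 3.10.9.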

Additional observations from a re-analysis of the deposited data

Results flagged for a closer look

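The 120 min and 60 min groups differed under the same comparison with mock for a few members, by the limma test of the difference (adjusted over all genes). The log2 differences, 120 min minus 60 min, were 0.26 for Rps27l, 0.20 for Rpl35a, 0.21 for Rps13, 0.13 for Rpl5, 0.17 for Rpl30 and 0.14 for Rps4x. For these 6 genes 2 libraries of 2 were higher at 120 min than either library of 60 min. The share called, 9.33% of members, was below that of all genes in the same direction (19.8%). At 60 min the repeats themselves differed over the family, with a median of -0.18 for repeat 2 minus repeat 1, which is larger than the members' median difference of 0.08 between the times. The part of that library shift in these results was not tested.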

How the results depend on the processing

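Of 1865 values compared with an alternative, 1622 kept their direction and side of the threshold, moved by less than the spread or, for counts, stayed near the main count. Some could not move: leaving out a library of a group outside a comparison leaves its log2 fold changes as they were. The total of 1622 is therefore no measure of how stable the calls at 120 min were. Higher members at 120 min against mock were 12. They were 2 with library totals, 2 with upper-quartile factors (medians 0.034 and 0.036, against 0.098), 32 with only the 2 groups compared, and 1 to 18 with 1 library left out. Between 60 and 120 min they were 7, against 2 with library totals, 2 with upper-quartile factors, 11 with only the 2 groups compared and 0 to 21 with 1 library left out. At 60 min they were 0, against 1 without the 5 min libraries and 0 to 2 with 1 library left out, and at 5 min 0, against 0 to 10. At 10 min the count stayed at 0. With only the 2 groups compared, 23.4% of all genes were called higher at 120 min against mock, a share below that of the members. Between 60 and 120 min that share was 22.5%. With library totals and upper-quartile factors the shares were 15.4% and 15.5% at 120 min, and 17.3% and 16.9% between the times. Without the 5 min libraries 5.16% of all genes were called higher at 60 min. Where a group kept 1 library, that library was assumed to vary like the other groups. The cause of these differences was not tested. At 120 min against mock the sign turned for 16 of 75 members with library totals and 15 with upper-quartile factors. Among the members named, it turned for Rpl22 (-0.028 with library totals, -0.026 with upper-quartile factors), Rpl39 (-0.055 and -0.054) and Rpsa (-0.013 and -0.011). With 1 library left out the values at 120 min ranged from -0.005 to 0.075 for Rpl22, from -0.104 to 0.118 for Rpl39, from -0.290 to 0.144 for Rpl39l and from -0.108 to 0.004 for Rps4y2. The deviations of repeat 1 from its group mean correlated between groups from -0.16 to 0.27, and the main fit used no pairing. With 2 libraries a group, these values cannot decide whether repeats of the same number shared a preparation. With a replicate block 9 members were called at 120 min against mock, where 20.1% of all genes were called higher. Between 60 and 120 min 4 were called, where 19.7% of all genes were. Other pseudocounts and a filter on low values left 12 calls at 120 min (20.2% to 20.6% of all genes higher). Relative log expression factors gave 14 (20.7%) and limma-voom on read-scale values 12 (20.4%). Without the rows of several loci, an alternative chosen after seeing the data, 64 members remained. Of these 8 were called at 120 min against mock and 5 between 60 and 120 min. The shares of all genes called higher were 20.4% and 19.8%. The planned count tests with edgeR and DESeq2 were not run, because the deposited unit is CPM. Low values limit Rps4y2 and Rpl39l, and Rpl39l rested on 51 to 96 reads.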
